A study of Mus musculus with 8 samples.

Results

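Early high fat diet in Apoe-deficient mice was examined in 3 of the 8 single-cell libraries of the series. They hold smooth muscle cells of the ascending aorta from Apoe-/- mice on the diet labelled ND, or after 1 month (1M) or 2 months (2M) of a high fat diet (HFD). The genes described are those that differed from ND in the same direction, by at least 1.5-fold, in both the 1M and the 2M library. The threshold was applied to log2 ratios of levels with a pseudocount of 1, and printed folds are plain ratios. The genes number 21 of 8691 genes compared. Genes listed at 0 in any of the 3 libraries and pseudogenes were left out by rule.

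Cells released from the vessel by enzymes were sorted for GFP, and their RNA was captured cell by cell in droplets (10x Genomics Chromium). What drove GFP, how old the mice were and how many mice went into a library are facts not given in the sources used here. All 3 groups lack Apoe, so ND is not a wild-type control. There was 1 library per group, and no difference between libraries could be tested. Months of diet, age and the library itself cannot be told apart, and the 1M and 2M comparisons share the ND library. The other libraries are Apoe-/- at 4 months of diet and 4 libraries labelled SMC TGFbR2 ApoE, which are Apoe-deficient with a genotype label that names the TGF-beta receptor in smooth muscle (called the TGFbR2 series here).

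Apolipoprotein E carries lipoprotein remnants to the liver for uptake, and mice without it develop high plasma cholesterol and atherosclerosis, faster on a fat-rich diet. Smooth muscle cells of the aortic media contract through actin and myosin and lay down the elastic fibres that let the vessel recoil. In diseased arteries such cells can lose contractile gene expression and take up adhesion molecule, matrix and inflammatory gene expression.

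The ND library held 1415 cells and 13363442 unique molecular identifiers (UMIs, counts of captured RNA molecules). The 1M library held 1488 cells and 13955624 UMIs, and the 2M library 2659 cells and 19720109 UMIs. The median cell had 9393 UMIs in ND, 9208.5 in 1M and 7220 in 2M, so cells of the 2M library were shallower. Between 4 and 7 cell barcodes were shared by any pair of the 3 libraries. All 8 smooth muscle markers were listed in each library, with a summed level of 32876 UMIs per 1000000 (CPM) in ND, 35242 in 1M and 31934 in 2M. Of 12 macrophage markers 1 was in the table, Lgals3, and of 8 endothelial markers 1, Pecam1. None of 8 lymphocyte or 5 red blood cell markers was in the table. The 1 Schwann cell marker in the table was listed at 0 in all 3 libraries. With at most 1 marker of each of these types in the table, cells carrying several could not be counted. A gene detected in under 5% of a library's cells is listed at 0, so these counts do not show that such cells were absent.

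Most genes differed little. In 1M 92.2% of the 8691 genes lay within 1.25-fold of ND, and in 2M 80.6%, with a median log2 ratio of -0.04 and 0.01 and an SD over genes of 0.18 and 0.28. At the 1.5-fold threshold 22 genes were higher (0.253%) and 54 lower (0.621%) in 1M, against 173 higher (1.99%) and 182 lower (2.09%) in 2M. Under the authors' own per-cell scaling, which moved the median log2 ratio of all genes in 2M to -0.15, the 2M counts were 71 higher and 459 lower, so 2M values are best read against the median of all genes. In both libraries 21 genes passed the same way (0.242%), of which 7 were higher (0.0805% of genes compared) and 14 lower (0.161%). At 2-fold in both, 2 genes remained higher, Aspn and Vcam1 (0.023%), and 1 lower, Cidea (0.0115%), together 0.0345%. At 2-fold in a single library, 0.0575% of genes were higher and 0.0805% lower in 1M, and 0.414% higher and 0.311% lower in 2M. The 95% counting intervals of both folds lay away from 1 for all 21 genes, and beyond 1.5-fold for 8 of them, Aspn, Vcam1, Scx, Sncg, Cidea, Ccn2, Mfap5 and Wrb. These intervals, like all intervals here, cover counting error only and not the spread between animals. The genes nearest the threshold were Nptx2 inside and Ttc21a outside it on the higher side, with a smaller log2 ratio of 0.63 and 0.55, and Bicdl1 inside and Hspa1b outside on the lower side, with -0.59 and -0.58.

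**Figure D1:**
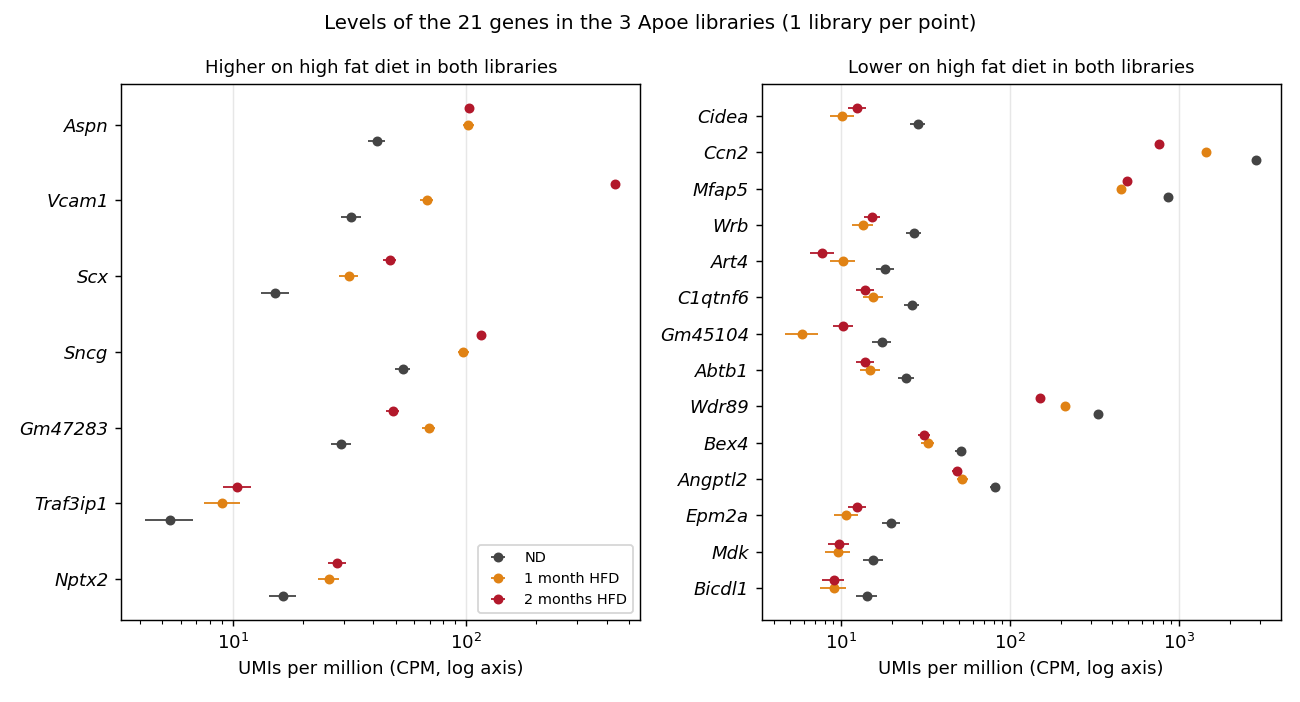
Level of each of the 21 genes in the ND, 1M and 2M libraries, in UMIs per 1000000 on a log axis, with 1 point per library and the exact Poisson 95% interval as a bar. For all 21 genes the ND point lies on the same side of both high fat diet points; Vcam1 is the gene whose 2M point, at 433 CPM, lies farthest from its 1M point, at 68.0 CPM.

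Genes of the cell surface and the matrix led the higher group. Vcam1 (chromosome 3, 116109949 to 116129688, minus strand, GRCm38) encodes an adhesion molecule that binds leukocyte integrins. Its level was 32.3 CPM in ND, 68.0 in 1M and 433 in 2M. That is 2.11-fold ND in 1M (interval 1.88 to 2.37) and 13.4-fold in 2M (12.2 to 14.8). At 4M it stood at 492 CPM.

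Aspn (chromosome 13, 49544443 to 49567565, plus strand) encodes asporin, a small leucine-rich proteoglycan of the matrix that binds TGF-beta. It measured 41.6 CPM in ND, 102 in 1M and 103 in 2M, which is 2.46-fold (2.23 to 2.72) and 2.48-fold (2.25 to 2.72). The 1M and 2M levels of Aspn could not be told apart within counting error, and the 4M level was 120 CPM. Vcam1, by contrast, had most of its difference between 1M and 2M.

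Scx (chromosome 15, 76457452 to 76459458, plus strand) encodes scleraxis, a transcription factor of tendon and other collagen-rich tissue. Its level was 15.3 CPM in ND, 31.5 in 1M and 47.2 in 2M, or 2.07-fold (1.75 to 2.45) and 3.09-fold (2.65 to 3.61). Sncg (chromosome 14, 34370274 to 34374789, minus strand), which encodes gamma-synuclein, was at 53.7, 97.3 and 116 CPM, or 1.81-fold (1.66 to 1.99) and 2.16-fold (1.98 to 2.35). Sncg was higher again at 4M, at 357 CPM, while Scx was at 33.8 CPM there.

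The other 3 higher genes were at lower levels. Nptx2, which encodes a secreted pentraxin known from synapses, was at 16.4, 25.9 and 28.0 CPM. Traf3ip1, which encodes a protein of the machinery that builds cilia, was at 5.39, 9.03 and 10.4 CPM, close to the level at which genes are listed at all. Gm47283, a predicted gene that the annotation places on the Y chromosome, was at 29.2, 69.4 and 48.7 CPM. Whether Gm47283 lies on the Y chromosome only was not examined. It is the only one of the 7 whose 1M level was above its 2M level beyond counting error, and its identity is uncertain. The Y-linked genes Uty, Ddx3y and Eif2s3y were listed in all 3 libraries and stayed within the 1.5-fold threshold in both comparisons.

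Matrix genes also led the lower group by level. Ccn2 (chromosome 10, 24595442 to 24598683, plus strand) encodes connective tissue growth factor, a secreted protein known to be induced by TGF-beta and by mechanical load. Its level was 2853 CPM in ND, 1444 in 1M and 757 in 2M. That is 0.506-fold ND in 1M (0.498 to 0.515) and 0.265-fold in 2M (0.260 to 0.270). At 4M it was at 1515 CPM, near the 1M level. Ccn1, a related gene of the same family, was at 3549, 3328 and 3266 CPM.

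Mfap5 (chromosome 6, 122505845 to 122529290, plus strand) encodes a glycoprotein of the microfibrils on which elastic fibres form. It was at 863 CPM in ND, 453 in 1M and 491 in 2M, or 0.524-fold (0.508 to 0.541) and 0.568-fold (0.553 to 0.584). Most of the Mfap5 difference was thus present at 1M. Its 4M level was 286 CPM.

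Cidea (chromosome 18, 67343604 to 67367785, plus strand), whose product sits on lipid droplets in fat cells, was at 28.5 CPM in ND, 10.2 in 1M and 12.5 in 2M. Its folds were 0.357 (0.292 to 0.434) and 0.438 (0.371 to 0.515). Angptl2 and C1qtnf6 encode secreted proteins. Angptl2 was at 81.1, 52.1 and 48.2 CPM, and C1qtnf6 at 26.1, 15.5 and 13.9 CPM. Mdk, which encodes the growth factor midkine, was at 15.5, 9.60 and 9.74 CPM. With cells thinned to 1 depth, Angptl2, Mdk, Bex4 and Epm2a no longer passed the threshold in both libraries, and with the median of all genes set to 0 Angptl2 and Bicdl1 did not. Bex4 and Mdk were also lost with every cell weighted the same, and Bicdl1 and Mdk without the 5% of cells with the most UMIs. Bicdl1 was lost as well when the total left out the mitochondrial genome, ribosomal protein and top 10 genes.

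The remaining lower genes act inside the cell or are less well known. Wdr89, a WD-repeat protein gene, was the third most abundant of the lower group, at 331, 212 and 150 CPM, or 0.642-fold (0.613 to 0.673) and 0.453-fold (0.432 to 0.475). Bex4 was at 50.9, 32.5 and 31.0 CPM. Wrb, which encodes a receptor for insertion of tail-anchored proteins into the endoplasmic reticulum, was at 26.9, 13.4 and 15.3 CPM. Epm2a encodes laforin, a glycogen phosphatase, and was at 19.8, 10.7 and 12.5 CPM. Art4, Abtb1 and Bicdl1 were between 14.1 and 24.2 CPM in ND and between 7.76 and 14.8 CPM in the high fat diet libraries. Gm45104, a transcript model of uncertain identity and the 1 gene that is not annotated as protein-coding, was at 17.4, 5.88 and 10.3 CPM. For 9 of the 21 genes the annotation has another gene on the opposite strand, Cidea, Ccn2, Wrb, C1qtnf6, Angptl2, Epm2a, Scx, Vcam1 and Aspn. The sources used here do not say whether the counting used strand, so reads of such pairs may be mixed.

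To compare shares of cells at equal depth, each cell was thinned to 2900 UMIs, which left out 0 cells. A Ccn2 UMI was then found in 96.9% of ND cells (95.8 to 97.7), 92.9% of 1M cells (91.5 to 94.2) and 76.7% of 2M cells (75.0 to 78.3). Cells with more than 10 Ccn2 UMIs made up 29.1% in ND, 3.83% in 1M and 0.639% in 2M. Cells at the top of the distribution were fewer, along with more cells at 0. Mfap5 UMIs were found in 84.9% (82.9 to 86.7), 67.7% (65.3 to 70.1) and 66.4% (64.6 to 68.2) of cells.

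Aspn was found in 9.19% of ND cells (7.73 to 10.8), 21.4% of 1M cells (19.4 to 23.6) and 21.4% of 2M cells (19.9 to 23.0). The mean in cells with any Aspn UMI was 1.40, 1.45 and 1.48, which at this depth lies near its floor of 1 UMI, so more cells with Aspn and more Aspn per cell cannot be told apart. Scx was found in 3.67%, 7.66% and 10.8% of cells and Sncg in 9.75%, 15.7% and 16.6%. Vcam1 was found in 3.39% (2.51 to 4.47), 6.05% (4.89 to 7.38) and 29.0% (27.3 to 30.8). Its mean in cells with any UMI was also higher, at 1.92 in ND, 2.84 in 1M and 3.55 in 2M. No second cell type was separated in these libraries, so the share of cells with a UMI that free RNA gives could not be read. Without thinning, Vcam1 was found in 9.89%, 15.7% and 43.4% of cells.

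**Figure D2:**
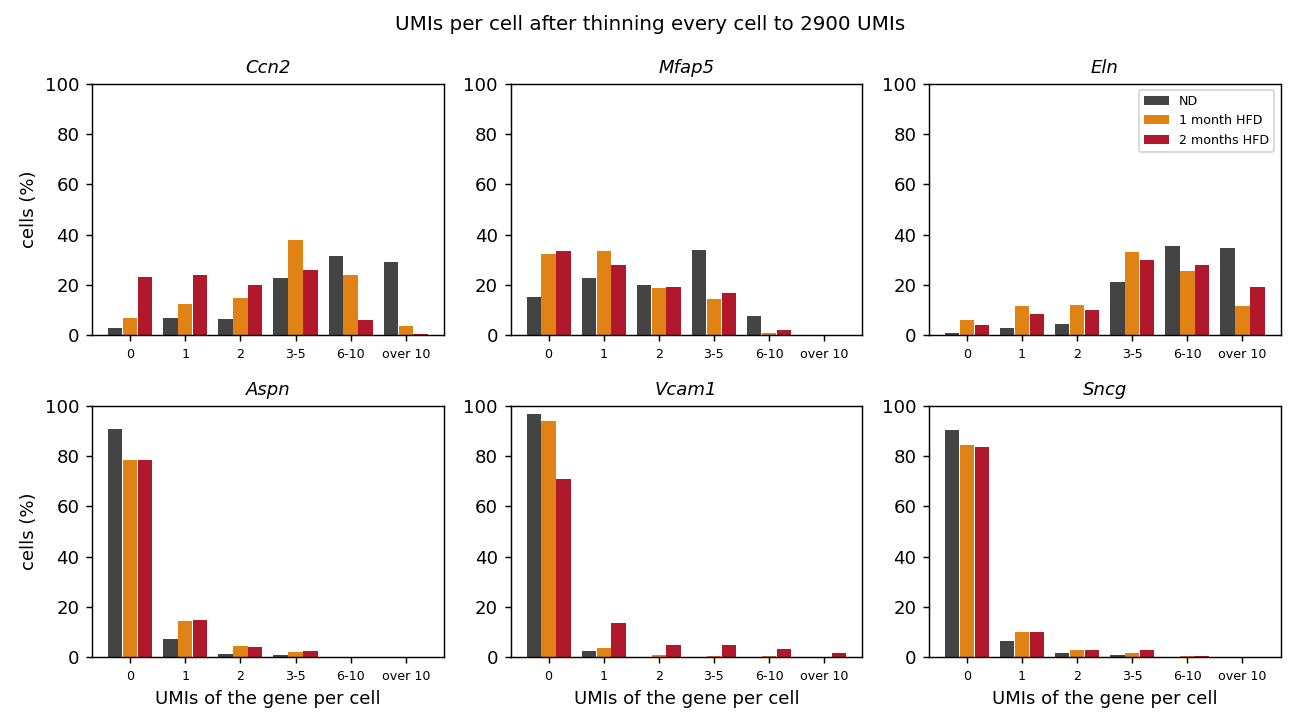
Share of cells (percent) with 0, 1, 2, 3 to 5, 6 to 10 or over 10 UMIs of Ccn2, Mfap5, Eln, Aspn, Vcam1 and Sncg after every cell was thinned to 2900 UMIs, with 1 bar per library. For Ccn2 the bars over 10 UMIs go from 29.1% in ND to 0.639% in 2M, while for Vcam1 most cells stay at 0 in every library.

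The 2M cells with Vcam1 were described further, with a split and a choice of genes made after the values were seen. After thinning, 1887 of the 2M cells had no Vcam1 UMI and 267 had 3 or more, 10.0% of cells. The cells with 3 or more had lower contractile gene levels than those with none, with Acta2 at 13295 against 20928 CPM and Myh11 at 1257 against 1912 CPM. They had more Lcn2, an acute-phase protein gene, at 741 against 12.6 CPM, more Cxcl1, a neutrophil chemokine gene, at 1042 against 130 CPM, and more Timp1, a metalloproteinase inhibitor gene, at 542 against 25.0 CPM. The matrix proteoglycan gene Lum was at 263 against 10.1 CPM and Dcn at 165 against 19.4 CPM. Both are also fibroblast markers, of which 6 of 8 were in the table, with a summed level of 1009 CPM in ND, 848 in 1M and 815 in 2M. These sums count 2 markers listed at 0 in ND, 4 in 1M and 3 in 2M, so they do not give a direction. Only 2 of the markers were listed in all 3 libraries, and 1 of these was higher in both 1M and 2M at 1.25-fold. Lum was listed at 0 in ND and 1M and at 68.1 CPM in 2M, and Pdgfra, Cd34 and Serpinf1 were listed at 0 in 2M. The part of other cell types in the Vcam1 values was not tested.

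The other members differed among themselves in these cells. Sncg was higher in 2M cells with 3 or more Vcam1 UMIs, at 167 CPM (139 to 198) against 94.3 CPM (86.3 to 103) in cells with none, and likewise in 1M at 500.0 against 89.5 CPM and in ND at 310 against 49.9 CPM. Aspn was lower in 2M cells with 3 or more Vcam1 UMIs, at 42.6 CPM (29.3 to 59.9), than in cells with none, at 122 CPM (113 to 132) in that library. Scx was at 55.5 against 38.7 CPM, with intervals that overlap (40.2 to 74.8 and 33.7 to 44.3). Ccn2 was at 929 against 685 CPM and Mfap5 at 424 against 501 CPM. Ccn2 lay the other way in ND, at 1310 CPM (927 to 1799) against 2884 CPM, and in 1M was at 1345 (1063 to 1678) against 1431 CPM. Aspn was at 34.5 CPM (0.873 to 192) against 41.9 CPM in ND and 51.7 (10.7 to 151) against 109 CPM in 1M, on 1 and 3 UMIs. In ND cells with 1 or more Vcam1 UMIs Aspn was higher than in those with none, at 115 CPM (65.7 to 187). Cells with 3 or more Vcam1 UMIs were also present in the other libraries, 10 in ND and 20 in 1M. In those 10 ND cells Timp1 was at 1690 CPM, against 12.4 CPM in ND cells without Vcam1. Cells within a library are not replicates, and the intervals are counting error only.

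A wider threshold of 1.25-fold, added after the counts at 1.5-fold were seen, gave 71 genes higher in both (0.817% of genes compared) and 179 lower in both (2.06%), 250 in all (2.88%). In a single library it was passed upward by 1.88% and downward by 5.89% of genes in 1M, and by 9.69% and 9.67% in 2M. The counting intervals of both folds excluded 1 for 241 of these 250. The functional lists below were drawn up with earlier results of these data known. They are described by how many listed genes passed 1.5-fold, and by their median log2 ratio beside -0.04 (1M) and 0.01 (2M) over all genes. Among all genes compared, 0.0805% were higher and 0.161% lower in both at 1.5-fold.

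Of 22 contractile genes 0 passed 1.5-fold in the same direction in both libraries, and the median was 0.01 in 1M and -0.15 in 2M. Acta2, which encodes smooth muscle actin, was at 18216 CPM in ND, 20761 in 1M and 19227 in 2M. Myh11, the smooth muscle myosin heavy chain gene, was at 2244, 2035 and 1759 CPM. Tagln, an actin-binding protein gene, was on opposite sides of ND, at 747, 983 and 330 CPM. Des, which encodes the intermediate filament desmin, was at 245, 142 and 173 CPM and passed 1.25-fold in both.

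Of 18 elastic fibre genes listed in all 3 libraries, 15 were below ND in 1M and 11 in 2M. The share of all genes compared that lay below ND was 62.4% in 1M and 48.1% in 2M. The medians of the list were -0.21 and -0.06. Mfap5 alone passed 1.5-fold in both. Eln, the elastin gene, was at 3436 CPM in ND, 1899 in 1M and 2362 in 2M, which is 0.553-fold and 0.687-fold, short of the threshold in 2M. Fbln5, which encodes a protein that joins elastin to microfibrils, was at 1080, 928 and 938 CPM, and Ltbp1, a latent TGF-beta binding protein gene, at 1197, 1281 and 1672 CPM. The summed level of the list was 10908 CPM in ND, 8393 in 1M and 9999 in 2M.

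Of 21 TGF-beta-responsive genes Ccn2 alone passed 1.5-fold in both, and the medians were -0.06 and 0.07. Smad6, an inhibitory Smad gene, stood below ND at 93.2, 65.2 and 67.4 CPM. In 2M alone 2 genes of this list were higher and 1 was lower at 1.5-fold, and 6 and 3 at 1.25-fold. Over all genes compared, 1.99% were higher and 2.09% lower in 2M at 1.5-fold, and 9.69% and 9.67% at 1.25-fold. In 1M 1 gene of the list was higher and 2 were lower at 1.25-fold, beside 1.88% and 5.89% of all genes. The counts of this list were not rerun under the authors' per-cell scaling. Of 22 collagen and basement membrane genes 0 passed in both, with medians of -0.11 and -0.08.

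Of 11 inflammatory and acute phase genes listed in all 3 libraries, Vcam1 alone passed 1.5-fold in both, and 8 were higher in 2M. Over all genes compared, 1.99% were higher in 2M at that threshold. The median was 0.05 in 1M and 0.79 in 2M. Nfkbia, which encodes an inhibitor and target of NF-kB, was at 802, 809 and 1758 CPM, and Cebpb, a transcription factor gene, at 470, 578 and 816 CPM. Cxcl12, a chemokine gene, lay below ND in both, at 168, 115 and 122 CPM. Macrophage markers are given beside this list: Lgals3 was at 65.1, 64.3 and 157 CPM, and the other 11 were not in the table. Whether other cells contributed was not tested.

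Of 16 interferon response genes 0 passed in both and 7 were higher in 2M, where 1.99% of all genes compared were. The medians were 0.09 and 0.24. Irf1, a transcription factor gene of this response, was at 89.2, 122 and 159 CPM, and Isg15 at 16.3, 21.4 and 25.2 CPM. Of 25 immediate early genes, which also respond to tissue digestion, 0 passed in both and 3 were higher in 2M, beside the same 1.99%. The medians were 0.02 and 0.27. Among them Klf2, a transcription factor gene induced by flow in endothelium, was at 295, 409 and 648 CPM and passed 1.25-fold in both. The part of digestion in the 2M values was not tested.

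Genes of lipid metabolism lay mostly below ND, by small amounts, beside 62.4% of all genes compared below ND in 1M and 48.1% in 2M. Of 16 cholesterol synthesis genes, 14 were below ND in 1M and 13 in 2M, with medians of -0.21 and -0.29, and 0 passed 1.5-fold in both. Cyp51, a lanosterol demethylase gene, was at 0.756-fold and 0.757-fold its ND level. Of 17 fatty acid oxidation and PPAR target genes, 14 were below ND in 1M and 12 in 2M, with medians of -0.16 and -0.15. Txnip, a gene that responds to glucose, was at 280, 171 and 188 CPM.

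**Figure D3:**
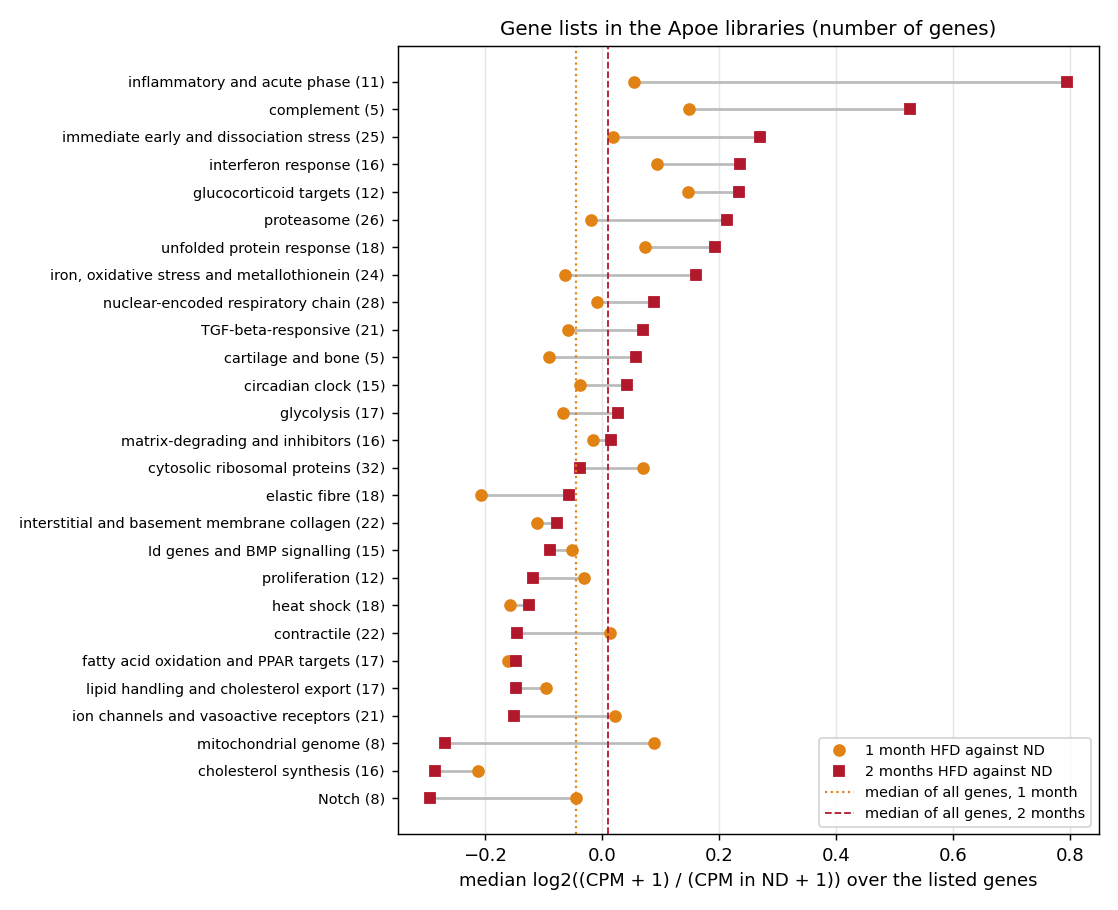
Median log2 ratio to ND over the listed genes of each functional list, for 1M (circles) and 2M (squares), with the number of genes in brackets and the median of all genes as vertical lines. The inflammatory list has the highest 2M median, 0.79, with a 1M median of 0.05, while cholesterol synthesis lies below ND at both times, at -0.21 and -0.29.

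Of 24 iron, oxidative stress and metallothionein genes, 16 were below ND in 1M and 6 in 2M. Over all genes compared the shares below ND were 62.4% and 48.1%. The medians of the list were -0.06 and 0.16, and 0 of its genes passed 1.5-fold in both. At 1.25-fold 2 were higher in both, the ferritin heavy chain gene Fth1 at 6891, 8625 and 9959 CPM and the metallothionein gene Mt2 at 154, 202 and 254 CPM. On the other side Nqo1, a quinone reductase gene, was lower in both, at 41.8, 32.2 and 27.7 CPM. Of 18 unfolded protein response genes 2 were higher in both at 1.25-fold, Ddit3 at 71.2, 91.3 and 125 CPM and Sdf2l1 at 1.58-fold and 1.40-fold its ND level, with medians of 0.07 and 0.19.

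The inducible HSP70 genes were below ND in both libraries. Hspa1a was at 956, 664 and 496 CPM and Hspa1b at 135, 90.1 and 66.0 CPM. Of 18 heat shock genes these 2 passed 1.25-fold in both, 0 passed 1.5-fold in both, and the medians were -0.16 and -0.12. Hspa1b lay at the threshold: its plain ratios were 0.666 and 0.488, and it passed with a pseudocount of 0.1 in place of 1. The genes are near-identical neighbours, so reads may have been divided between them by the counting. Their promoters are shown because both genes were lower together, a choice made after several motifs had been searched in promoters of the genes above. The 250 bases before the start site are from RefSeq (GRCm38.p6, minus strand, chr17:34972157-34972406 for Hspa1a and chr17:34959239-34959488 for Hspa1b), 5′ to 3′, with the letters GAANNTTC of the heat shock element in capitals. The motif is its own reverse complement, so 1 search covers both strands.
Hspa1a: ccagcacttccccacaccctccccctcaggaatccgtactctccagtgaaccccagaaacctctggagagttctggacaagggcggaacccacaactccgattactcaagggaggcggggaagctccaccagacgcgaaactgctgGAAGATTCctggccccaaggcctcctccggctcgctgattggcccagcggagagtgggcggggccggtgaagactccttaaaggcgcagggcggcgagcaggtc
Hspa1b: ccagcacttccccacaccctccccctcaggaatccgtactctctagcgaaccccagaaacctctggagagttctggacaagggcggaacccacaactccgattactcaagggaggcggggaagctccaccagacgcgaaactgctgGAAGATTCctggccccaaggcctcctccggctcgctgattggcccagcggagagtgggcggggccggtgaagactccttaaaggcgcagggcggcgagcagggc
The sequences differ at 3 of 250 positions, and each holds the motif once, starting 104 bases before the start site. The motif occurs in 2199 of 32851 RefSeq promoter windows of this length (6.69%). Of the 21 genes, 10 had a promoter in the RefSeq table used, and 0 of those 10 hold it.

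The TGFbR2 series has its own ND library, so its values do not share a control with those above. Of the 7 higher genes 6 were listed in its ND, 1M and 2M libraries, and 5 of these were above their ND in both, where 36.6% of all 8833 genes listed there were. At 1.5-fold in both, 3 of the 6 passed, Aspn, Vcam1 and Scx, where 0.996% of all genes were higher. Aspn was at 18.5, 55.3 and 44.8 CPM in that series, Vcam1 at 91.0, 146 and 571 CPM, and Scx had log2 ratios of 0.61 and 1.31. Gm47283 was on both sides of its ND there, at 30.6, 33.0 and 23.8 CPM.

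Of the 14 lower genes 12 were listed in the 3 libraries of that series and 9 were below their ND in both, where 28.8% of all genes were. None of the 12 passed 1.5-fold in both, where 0.611% of all genes were lower. Ccn2 was at 676, 546 and 217 CPM and Mfap5 at 308, 243 and 164 CPM, so both began from a lower ND level than in Apoe-/- cells. The levels come from tables that were normalised separately and are compared as UMIs per 1000000 of each library. With the 1.25-fold threshold, 41 of 66 listed higher genes (62.1%) and 101 of 165 listed lower genes (61.2%) lay on the same side of ND in both libraries of that series. Of these, 20 and 32 passed 1.25-fold in both, where 4.89% and 3.25% of all its genes did. No difference between the genotypes was tested.

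**Figure D4:**
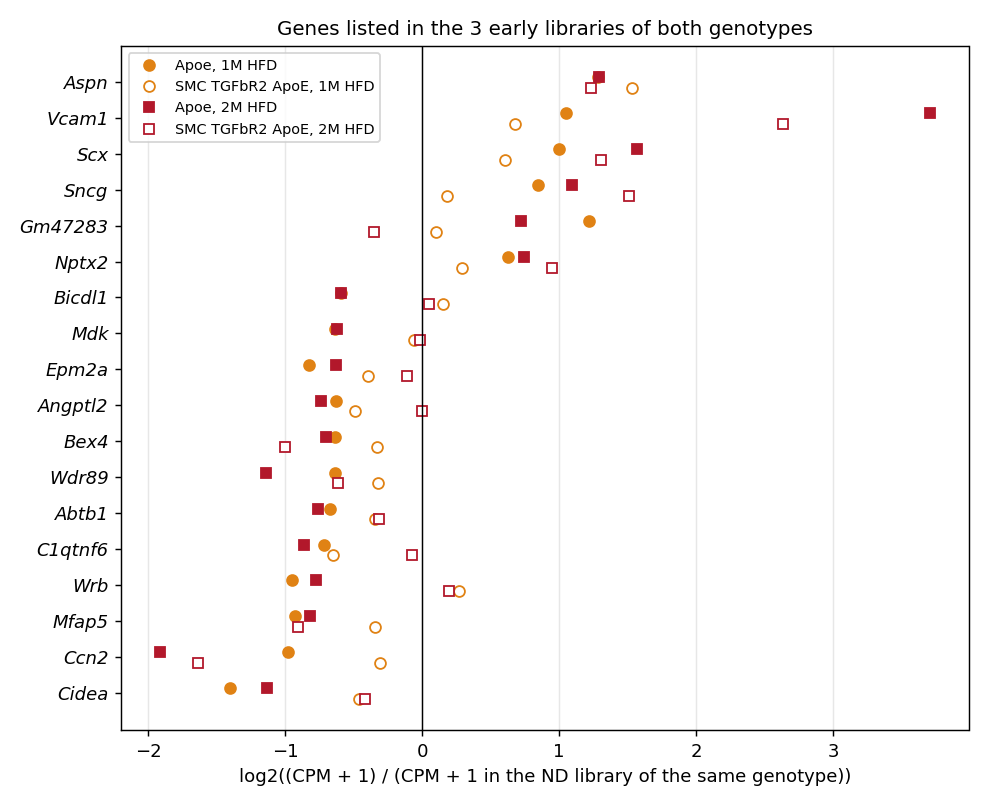
Log2 ratio to the ND library of the same genotype for the 18 members listed in the early libraries of both genotypes, with filled symbols for Apoe-/- and open symbols for the TGFbR2 series, circles for 1M and squares for 2M. Open symbols of Aspn, Vcam1 and Scx lie on the same side as the filled ones and past 0.58, the log2 of 1.5, at both times, while those of Wrb and Bicdl1 lie on the other side of 0.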

How the data were processed

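The authors deposited log2 values, scaled per cell, in 6 tables, of which the 2 time-course tables were used and the 4 tables by diet were not examined. The submitters' processing notes name UMI-tools, STAR, featureCounts, Subread 1.6.0 and GRCm38. The sources used here name no annotation release. After undoing the log2 and its pseudocount of 1, each value was a whole multiple of the smallest in its cell (100% of entries, tolerance 0.01), which gave UMIs. UMIs were summed per library, and levels are UMIs per 1000000 (CPM) with exact Poisson 95% intervals. Folds are ratios of CPM with exact conditional binomial intervals and shares have Clopper-Pearson intervals. The log2 ratio is log2((CPM + 1)/(CPM in ND + 1)).

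Of 10338 identifiers 10333 matched GENCODE vM21, the source of symbols and 1-based coordinates. In all 3 libraries 8905 were listed. Annotated pseudogenes and symbols with "-ps", 214 in all, were left out. No cell was removed and no doublet caller was run. With 1 library per group no test was made. On simulated libraries with counting noise only, 0, 11, 50 and 50 of 50 genes changed by 1.25, 1.5, 2 and 4-fold passed 1.5-fold in both, with 0 of 8705 unchanged genes. Results for some list genes are not reported here. The members and lists were chosen with earlier results of these data known. Named genes are the protein-coding ones at 1.5-fold, up to 15 per direction, and listed genes with the largest or best known values. Thinning, scaling, pseudocount, filter and fold were varied. Python 3.11.15, numpy 2.4.6, scipy 1.17.1 and pandas 2.3.3 were used.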

Additional observations from a re-analysis of the deposited data

Results flagged for a closer look

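For 2 of the 21 genes the 1M and 2M libraries of the Apoe-/- mice lay on one side of their ND and those of the TGFbR2 series on the other. The difference between genotypes was not tested. The log2 ratio of Wrb was -0.95 in 1M and -0.78 in 2M, against 0.27 and 0.1933 in the TGFbR2 series. That of Bicdl1 was -0.59 in both, against 0.15 and 0.0492. The ratios of the TGFbR2 series are small and have no counting interval here. At 4M in that series Wrb was at 22.8 CPM against 33.6 in its ND. Bicdl1 was listed at 0 there against 10.1 CPM, and a listing at 0 need not mean a low level. In Apoe-/- cells at 4M, Wrb was at 0.855-fold ND (0.719 to 1.01) and Bicdl1 at 0.804-fold (0.628 to 1.02). Both of these intervals include no difference. Both genes are at low levels, under 45 CPM in all these libraries.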

How the results depend on the processing

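No paired analysis was possible because each group has 1 library and no result comes from a test. None of the 20 protein-coding genes that passed 1.5-fold in both changed direction under the 8 alternatives run for them, and 139 of 160 values stayed within the counting interval. Genes named from the lists were not rerun. At 2-fold, the counts were 2 higher and 1 lower in both, 5 higher and 7 lower in 1M, and 36 higher and 27 lower in 2M. At 1.25-fold they were 71 and 179 in both, 163 and 512 in 1M, and 842 and 840 in 2M. With a pseudocount of 10 CPM, 4 were higher and 4 lower in both, 13 and 16 in 1M, and 85 and 73 in 2M. With a mean of at least 50 CPM, 3 were higher and 4 lower in both, 10 and 14 in 1M, and 54 and 55 in 2M. Both settings drop or shrink low genes by construction. After thinning, 15 were higher and 43 lower in both, 56 and 201 in 1M, and 233 and 280 in 2M, and 10 of the 14 lower genes remained, without Angptl2, Bex4, Epm2a and Mdk. The cause was not tested. With the authors' per-cell scaling the median of all genes in 2M shifted to -0.15 from 0.01, and 24 genes were lower in both, 71 higher in 2M and 459 lower in 2M. Relative to ND, genes higher in 2M were thus outnumbered by lower ones under that scaling, against near equal counts in CPM. All 14 lower and 5 of the 7 higher genes remained, without Gm47283 and Nptx2. Members under 30 CPM rest on 72 to 390 ND UMIs, which limits their precision.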

Other observations

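Some genes differed in 2M while 1M stayed near ND. The rule, set after the values were seen, was protein-coding, at least 1.5-fold at one time and within 1.25-fold of ND at the other. By it 135 genes were higher in 2M only and 95 lower in 2M only, against 9 higher and 23 lower in 1M only. Over all genes compared, 1.99% were higher and 2.09% lower in 2M at 1.5-fold, against 0.253% and 0.621% in 1M. Under the authors' per-cell scaling 71 genes were higher and 459 lower in 2M, and the rule was not rerun under it. The leading higher genes in 2M included Tlr2, a receptor for bacterial lipoproteins, at 6.88, 8.81 and 34.5 CPM in ND, 1M and 2M, and C1ra, a complement protease gene, at 14.0, 15.6 and 54.4 CPM. Timp1 was at 37.6, 38.1 and 127 CPM. The NF-kB pathway genes Nfkbiz (30.9, 31.0 and 88.4 CPM), Relb (23.3, 22.6 and 60.3 CPM) and Tnfaip3 (8.23, 7.31 and 29.3 CPM) were among them. The metallothionein gene Mt1 was at 950, 1084 and 2437 CPM. Lcn2 was outside the genes compared, because it was listed at 0 in ND and 1M. It was at 141 CPM in 2M, where 8.73% of cells had it. A gene found in too few cells of a library is listed at 0. The ND and 1M levels of Lcn2 are therefore not known, and its difference from 2M could not be measured.

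The 1M library stood apart in other genes. Sparcl1, a matrix glycoprotein gene, was at 1598, 2677 and 1336 CPM. Tcap, a gene of the muscle Z-disc, was at 338, 124 and 362 CPM. The chemokine receptor gene Ackr3 was at 27.3, 11.6 and 26.3 CPM. In the mitochondrial genome, mt-Co1 was at 510, 850 and 460 CPM and mt-Co3 was listed at 0 in 1M alone, so a listing at 0 need not mean a low level.

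Of the genes compared, 3 passed 1.5-fold in opposite directions, Gm11361 (30.5, 77.5 and 14.3 CPM), Gm8797 (33.4, 65.9 and 15.9 CPM) and the clock gene Nr1d2 (47.9, 31.5 and 74.1 CPM). Non-coding RNAs, picked after their values were seen, lay on both sides of ND in 2M. Gm24270, annotated as a miRNA, was at 177, 178 and 42.5 CPM, and Rpph1, the RNA of ribonuclease P, at 22.7, 23.1 and 40.9 CPM. In the TGFbR2 series Gm24270 was at 326, 175 and 41.5 CPM. Rn7sk, a small nuclear RNA gene, was at 210, 497 and 209 CPM.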
